A study of Mus musculus with 2 samples.

Results

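The melanocortin genes of the adrenal gland were described: the hormone precursor gene Pomc, the 5 melanocortin receptor genes Mc1r, Mc2r, Mc3r, Mc4r and Mc5r, and the genes of the 2 accessory proteins, Mrap and Mrap2. They were found by gene symbol, as given in the transcript names of a deposited transcript table, and joined by gene identifier to the gene tables, which gave 8 genes of the 55536 listed. RNA was extracted from the adrenal gland of 2 females of the mouse strain B6CASTF1/J, an F1 hybrid supplied by The Jackson Laboratory, at an age of 18 to 20 months. Each animal gave 1 library from 300 ng of total RNA, depleted of ribosomal RNA, with the strand kept and with synthetic ERCC spike-in RNAs added. The animals carry no other allele or treatment in the labels and form 1 group, so the comparisons are between genes within a library and between the animals. Both samples have the same donor identifier, and in one description of animal 2 the female and the cDNA are those named for animal 1, although its remaining fields give another female and another piece of tissue.

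Pomc encodes a precursor protein that corticotrophs of the pituitary cut into adrenocorticotropic hormone (ACTH), and other cells cut further into melanocyte-stimulating hormones. The melanocortin receptors are coupled to the stimulatory G protein, which raises cyclic AMP, and Mc2r, the receptor for ACTH, is the member through which the pituitary drives steroid synthesis in the adrenal cortex. Mc2r reaches the cell surface and binds ACTH only together with the accessory protein encoded by Mrap. Mrap2 encodes a related protein known mainly for its action on the Mc4r receptor in the brain. In mice, Mrap and Mc2r are also known from fat cells.

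Mrap had the highest levels of the 8 genes, and its RNA was divided among 4 annotated transcripts that leave the same first exon for different second exons. Only Mrap-201 carries the full reading frame to the last exon. The sequences across this first splice junction are shown because they are what sets the transcripts apart. Each window of 30 bases was read from the GENCODE M21 transcripts (mm10, chromosome 16, + strand). The last 15 bases of the shared exon, which ends at base 90738669, are in lower case, and the first 15 bases of the next exon are in capitals.
Mrap-201: tgaaagccaacaagcATTCCATTGTCATCG
Mrap-202: tgaaagccaacaagcTGTGAGACCGTCTTT
Mrap-203: tgaaagccaacaagcAACACAGCAGCTGTC
Mrap-204: tgaaagccaacaagcGCTGTTACTGGAAAC

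The exon joined in Mrap-201 lies at bases 90747524 to 90747623 and is 100 bases long. Its reading frame, which has 106 coding bases before the junction, runs on for 127 codons in all before the stop codon. Mrap-202 instead joins an exon of 85 bases at 90746642 to 90746726. There the frame meets a TGA stop whose first base is base 3 after the junction, after 36 codons, and the last splice junction lies 180 bases beyond it. Mrap-204 joins an exon of 249 bases at 90747375 to 90747623, where a TAA stop begins at base 27 after the junction and ends a frame of 44 codons. GENCODE annotates both as targets of nonsense-mediated decay, the pathway that degrades mRNAs whose stop lies well before a later splice junction. Mrap-203, annotated as a processed transcript with no reading frame, ends in an exon of 229 bases at 90746311 to 90746539.

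Levels are given in TPM, a transcript abundance that divides counts by transcript length and scales each library to a fixed total, so that levels of different genes can be compared. They come from the deposited gene table, whose expected counts are estimated reads or fragments per gene. The interval given beside a TPM is also the authors'; the sources used here do not state its level. The authors' second table of transcripts comes from another quantification, with its own estimated counts and TPM, and its values are named as such, since levels were scaled separately in each table. Expected counts over genes summed to 35452819 in animal 1 and 34879073 in animal 2. All 6 adrenal cortex markers and all 6 chromaffin cell markers were detected, at summed levels of 12770 and 14790 TPM (cortex) and of 1807 and 1526 TPM (chromaffin cells) in animals 1 and 2. All 10 adipocyte markers were detected too, with sums of 3902 and 2575 TPM in animals 1 and 2, as were all 6 macrophage markers, with 87.2 and 98.5 TPM. The sum of 6 skeletal muscle markers was 147.6 TPM in animal 1, against 0.33 TPM in animal 2, so the library of animal 1 also held muscle transcripts, of which Ckm, Myh2, Myh4 and Atp2a1 had 0 counts in animal 2.

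Mrap and Mc2r were the only members to reach 1 TPM in each of the libraries, which is 2 of 8, where 52.4% of 22015 nuclear protein-coding genes passed. Mrap2 reached this level in animal 1 alone. Mc5r and Pomc lay below 1 TPM, and Mc1r, Mc3r and Mc4r had 0 or 1 expected count in each library. In bulk tissue, fewer cells of a type and less RNA per cell cannot be told apart.

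**Figure D1:**
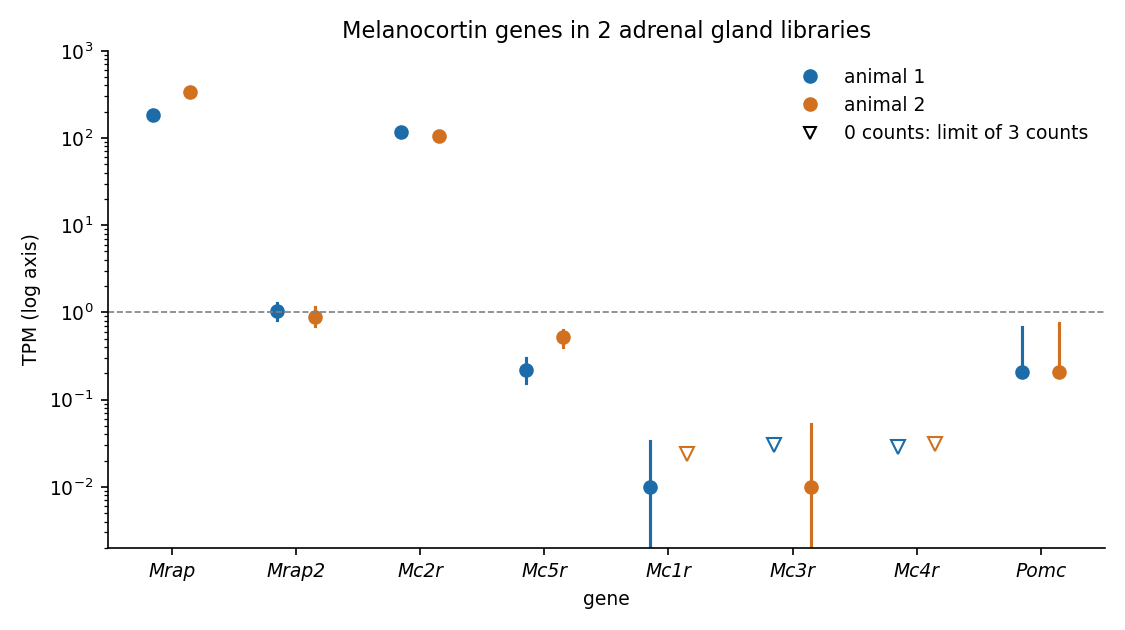
Levels of the 8 melanocortin genes in TPM (log axis) in animal 1 (blue) and animal 2 (orange); vertical lines are the deposited interval of each library, triangles mark genes with 0 counts at the level that 3 counts would give, and the dashed line is 1 TPM. Mrap and Mc2r lie above 100 TPM in both animals, Mrap2 is near 1 TPM and the other members are lower.

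The ligand gene Pomc (ENSMUSG00000020660.6, mm10 chr12:3954951-3960642, + strand) had 0.21 TPM in each animal. The deposited intervals were 0.185 to 0.685 TPM and 0.203 to 0.749 TPM in animals 1 and 2. They belong to a posterior estimate of the level, whose mean was 0.42 TPM in animal 1 and 0.46 TPM in animal 2. The value of 0.21 TPM thus lies near the lower bound in both. In each animal it rested on 7 expected counts, for which an exact Poisson interval (95%) is 2.81 to 14.4 counts. The libraries had equal counts of Pomc, at a depth that could show only a large difference. The second table gave 9 counts in each animal, or 0.545 TPM in animal 1, against 0.505 TPM in animal 2. The 5 annotated transcripts of Pomc shared these few reads, and the tables did not place them alike. The first table put all 7 counts on Pomc-202 in animal 1 and on Pomc-204 in animal 2, and the second table put all 9 on Pomc-202 in animal 1 and on Pomc-201 in animal 2. The nearest gene within 10 kb, Efr3b on the opposite strand, lies 1911 bases away and had 0.57 TPM in animal 1, against 0.80 TPM in animal 2.

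Of 8 marker genes of the pituitary, where Pomc is mainly made, none reached 1 TPM in either library. Tbx19, the transcription factor that turns on Pomc in corticotrophs, had 0.01 TPM in animal 1 and was listed at 0 in animal 2. Avpr1b, the vasopressin receptor of corticotrophs, Pitx1, a pituitary transcription factor, and the hormone genes Gh, Prl, Cga and Tshb were listed at 0 in both gene tables. Crhr1, the receptor for corticotropin-releasing hormone, had 0.34 TPM in animal 1, against 0.08 TPM in animal 2.

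The genes whose products process the Pomc protein or regulate that processing were all present. Each of the 7 had at least 1 TPM in both libraries, with sums of 435.3 TPM in animal 1, against 379.5 TPM in animal 2. None of the 7 was 2-fold apart between the animals, and their median log2 ratio of animal 1 over animal 2 was 0.27 (0.05 when scaled to the spike-ins). Carboxypeptidase E, which trims basic residues from cut peptides, led with 283.31 TPM in animal 1, against 230.96 TPM in animal 2 for its gene Cpe. Pam, for the enzyme that amidates peptides such as alpha-melanocyte-stimulating hormone, had 105.72 and 105.85 TPM in animals 1 and 2. Scg5, whose product assists the convertase made from Pcsk2, had 15.33 TPM in animal 1, against 13.29 TPM in animal 2. Pcsk1n, for an inhibitor of the convertase made from Pcsk1, had 15.26 and 14.75 TPM in animals 1 and 2. The convertase genes themselves were lower, with 9.92 and 8.64 TPM for Pcsk1 and 2.33 and 1.95 TPM for Pcsk2 in animals 1 and 2. All of these stood above the precursor gene itself in both libraries. These enzymes also act on other peptide precursors, and the chromaffin markers given above were abundant in the same libraries.

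Among the receptors, Mc2r (ENSMUSG00000045569.7, chr18:68406907-68429320, - strand), the ACTH receptor, had 115.86 TPM in animal 1, against 105.66 TPM in animal 2. Its deposited intervals were 111.2 to 116.5 TPM and 101.0 to 106.4 TPM, from 6899 and 5745 expected counts in animals 1 and 2. Both libraries held it at a similar, high level, with 414 and 474 nuclear protein-coding genes above it, at the 98.1 and 97.8 percentile. Mc2r took 99.8% of the summed TPM of the 5 receptors in animal 1 and 99.5% in animal 2. Counted in reads, it had 6899 of 6933 receptor counts in animal 1 (Wilson 95% interval 99.32 to 99.65%) and 5745 of 5816 in animal 2 (98.46 to 99.03%). These intervals, and the limits from 3 counts below, cover counting error only.

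Mc5r (ENSMUSG00000007480.4, chr18:68337596-68342446, + strand), a receptor known from exocrine glands, came next with 0.22 TPM in animal 1, against 0.52 TPM in animal 2. These values rested on 33 and 70 expected counts, with Poisson intervals of 22.7 to 46.3 and 54.6 to 88.4 counts in animals 1 and 2. Animal 1 was the lower, and the intervals did not overlap. Mc2r exceeded Mc5r 527-fold in animal 1 and 203-fold in animal 2 in TPM. The second table also held Mc5r reads in both libraries, with 42 counts in animal 1 and 72 counts in animal 2. No other annotated gene lies within 10 kb of Mc5r.

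Mc4r (ENSMUSG00000047259.3, chr18:66857704-66860506, - strand), the receptor through which melanocortins limit food intake in the hypothalamus, had no count in either table or library. As the limit for a count of 0, 3 counts were taken, which is 0.0285 TPM in animal 1, against 0.0313 TPM in animal 2. The upper bound of the exact two-sided Poisson interval used for Pomc and Mc5r would be 3.69 counts, and the folds given against the limit would then be lower in that proportion. Against this limit in each library, Mc2r was at least 4059-fold higher in animal 1 and at least 3380-fold higher in animal 2. Mc3r (ENSMUSG00000038537.1, chr2:172248492-172251114, + strand), the other receptor known mainly from the brain, had 0 counts in animal 1 and 1 count in animal 2. The second table gave it 1 count in each library. Mc2r was at least 3789-fold higher than the 3-count limit of Mc3r in animal 1.

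Mc1r (ENSMUSG00000074037.3, chr8:123407107-123410744, + strand), the receptor that controls pigment in melanocytes, was placed differently by the tables. The gene table gave it 1 count in animal 1 and 0 counts in animal 2, and the second table gave it 22.1 counts in animal 1 and 26.6 counts in animal 2, or 0.262 and 0.319 TPM. Mc1r lies inside the span of Gm20388, a gene of the same strand that has no exon in common with it, and 679 bases before Tubb3, a neuronal tubulin gene on the same strand. Gm20388 also differed between the tables, with 25.4 and 353.1 counts in the gene table and 149.5 and 264.3 counts in the second table in animals 1 and 2. The level of Mc1r is therefore uncertain between these values, and which table holds its reads correctly was not tested. The antisense gene Gm38092, which overlaps Mc1r, was listed at 0 throughout. Of 8 melanocyte markers, Mitf alone reached 1 TPM in both libraries, with 2.52 TPM in animal 1, against 2.53 TPM in animal 2, and the pigment gene Oca2 had 0.98 TPM in animal 1, against 1.34 TPM in animal 2. Pmel, for a melanosome protein, had 17 and 19 expected counts in animals 1 and 2, and Dct, for a pigment enzyme, had 6 in each. The pigment genes Tyr, Tyrp1 and Slc45a2 had 0 counts in the gene table, and Mlana had 0 counts in animal 1 and 2 counts in animal 2. The summed level of the 8 markers was 3.93 TPM in animal 1, against 4.37 TPM in animal 2.

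The accessory protein gene Mrap (ENSMUSG00000039956.9, chr16:90738207-90749785, + strand) had 183.91 TPM in animal 1, against 335.84 TPM in animal 2. These rested on 6493 and 10833 expected counts, with deposited intervals of 176.5 to 185.4 TPM and 323.2 to 335.7 TPM in animals 1 and 2. The interval belongs to a posterior estimate of the level, and the printed value of animal 2 lies just above it. Animal 2 was the higher, and 240 nuclear protein-coding genes in animal 1 and 90 in animal 2 stood above Mrap. Urb1, on the opposite strand and 1741 bases from Mrap, had 3.01 TPM in animal 1, against 5.48 TPM in animal 2. Its expected counts, 681 and 857 in animals 1 and 2, differed by a smaller ratio than its TPM. Gm17518, 9086 bases away on the same strand, had 0.45 and 0.75 TPM from 22 and 33 counts. Mrap2 (ENSMUSG00000042761.14, chr9:87144306-87184045, + strand) had 1.03 TPM in animal 1, against 0.89 TPM in animal 2, from 78 and 62 expected counts. Its intervals, 0.826 to 1.29 TPM and 0.700 to 1.14 TPM, overlapped. Mrap was 179-fold higher than Mrap2 in animal 1 and 377-fold higher in animal 2, a mean log2 ratio of 8.02 ± 0.76 (SD, n = 2).

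Mrap RNA exceeded that of its receptor partner in TPM in both libraries, by 1.59-fold over Mc2r in animal 1 and by 3.18-fold in animal 2. The mean log2 ratio was 1.17 ± 0.71 (SD, n = 2). With 2 animals an exact two-sided sign-flip test cannot give a p below 0.5, so none was made. The second table gave 2.07-fold in animal 1 and 4.29-fold in animal 2. In the gene table, division by length set the direction in animal 1. In its expected counts not divided by length, Mrap stood at 0.941 times Mc2r in animal 1 and at 1.89 times in animal 2. The second table's own counts put Mrap above Mc2r without division by length. They were 7373 for Mrap and 6565 for Mc2r in animal 1, and 12670 and 5435 in animal 2. The tables thus differed in counts as well as in lengths. The gene table took 99 bases off each transcript for its effective length, against 328 and 323 bases in the second table in animals 1 and 2, which raises short transcripts more in the second. With the same expected counts over the lengths of the second table the ratio was 1.73-fold in animal 1 and 3.47-fold in animal 2.

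Most Mrap RNA was assigned to the transcript with the full reading frame. Mrap-201 had 166.23 TPM in animal 1, against 300.2 TPM in animal 2 in the first transcript table, which is 90.4% and 89.4% of the gene. Mrap-202 had 7.26% in animal 1 and 8.01% in animal 2. Mrap-204 had 1.92% and 2.09%, and Mrap-203 had 0.44% and 0.52%, in animals 1 and 2. The higher level of Mrap in animal 2 was thus spread over all 4 transcripts, whose shares differed by at most about 1 percentage point. The table used mattered more than the animal: in the second table Mrap-201 had 73.4% in animal 1 and 70.8% in animal 2, and Mrap-202 had 23.1% and 24.7%. The mean share of Mrap-201 was 89.9 ± 0.70% in the first table and 72.1 ± 1.84% in the second (SD, n = 2 each). Mrap-202 begins upstream of the others and shares the last 2 exons with Mrap-201, so the reads that tell them apart are those over the first bases of the gene, the exon of 85 bases and its junctions, and the junction shown above for Mrap-201.

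**Figure D2:**
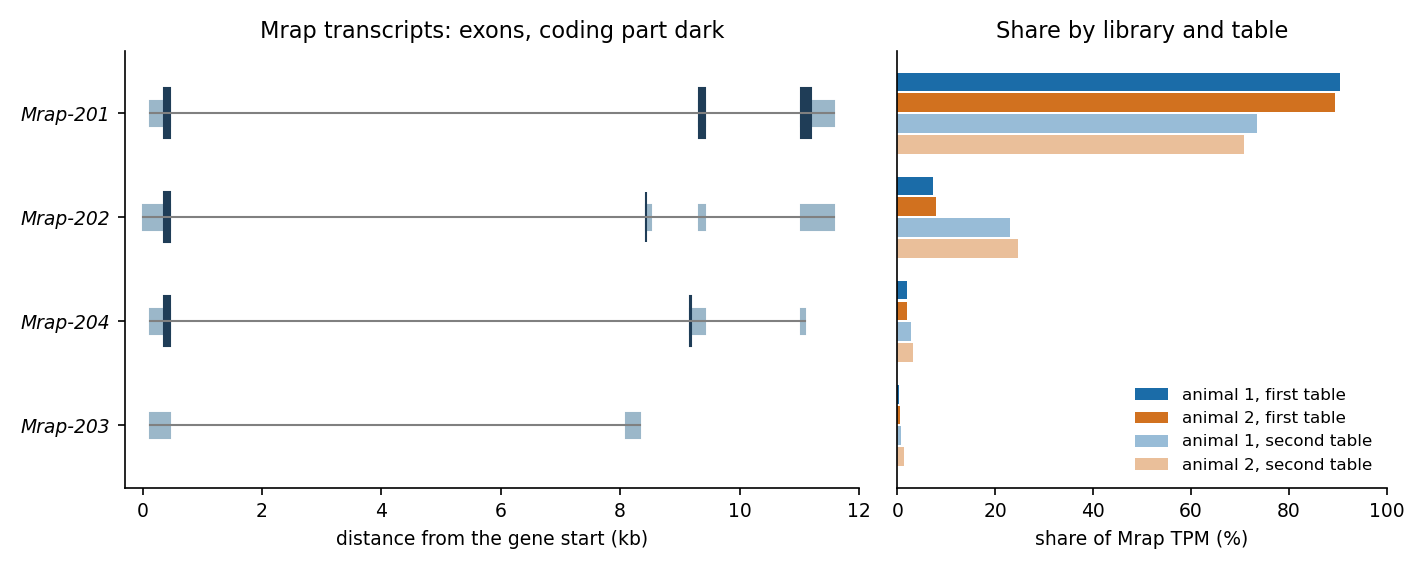
Left, exons of the 4 annotated Mrap transcripts by distance from the gene start in kb, with coding parts dark and tall and untranslated parts pale; right, share of each transcript in the TPM of the gene in percent, with bars for animal 1 and animal 2 in the first (dark) and second (pale) transcript table. Mrap-201 takes 89.4 to 90.4% in the first table and 70.8 to 73.4% in the second, with Mrap-202 taking most of the rest.

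The 3 transcripts of Mrap2 have the same 3 coding exons in GENCODE and differ in an untranslated second exon. Mrap2-203 has one of 145 bases at 87144531 to 87144675, Mrap2-202 has one of 181 bases at 87144977 to 87145157, and the remaining transcript has neither. Here the tables named different leading transcripts. The first gave Mrap2-203 66.4% in animal 1 and 69.7% in animal 2, and the second gave it 37.5% and 28.0%. Mrap2-202 had 21.5% in animal 1 and 30.3% in animal 2 in the first table, against 62.5% and 72.0% in the second. With 78 and 62 counts for the gene, these tables do not settle which second exon was the more used. The receptors have 1 annotated transcript each.

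Between the animals, expected counts were scaled with TMM, a normalisation that assumes most genes are alike, and genes whose expected count averaged 50 or more were compared, among them 4 of the 8 members. A gene counted as apart if the ratio reached 2-fold either way and the deposited intervals did not overlap. Mc5r was apart and higher in animal 2, as 1 of 4 members, where 3.46% of 13569 genes were apart either way and 1.71% were apart and higher in animal 2. Its log2 ratio of animal 1 over animal 2 was -1.16 (95% counting interval -1.76 to -0.57). Its mean count of 51.5 lay just over the minimum and passed only through animal 2, with 33 counts in animal 1 and 70 in animal 2. The shares come from genes at all counts above the minimum, so 1 of 4 is not a result about the members. The deposited intervals alone did not overlap for 3 of the 4, against 33.1% of all genes compared. With 1 library per animal these counts describe the libraries and carry no p-value.

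The log2 ratio of Mrap was -0.82 (-0.87 to -0.78), and 6.49% of genes were at least as far from 0. Mc2r had a log2 ratio of 0.18 (0.13 to 0.23), a distance that 57.1% of genes reached, and its direction turned to -0.04 when the libraries were scaled to the spike-in totals. That scaling moved the median of all genes compared, from 0.01 with TMM, to -0.21, and the genes apart split into 152 higher in animal 1 and 393 higher in animal 2, where TMM gave 237 and 232. Mrap was also apart under it, at -1.04. The log2 ratio of Mrap2 was 0.25 (-0.23 to 0.73) and was 0.02 with spike-ins. In the second table Mc5r was at -0.79 and no member was apart. Mrap thus differed between the animals by more than its receptor did, under each of the scalings tried, and the adipocyte markers went the other way, with all 10 higher in animal 1 (9 of 10 with spike-ins), as did all 6 skeletal muscle markers under both scalings and all 6 chromaffin markers (4 of 6 with spike-ins). Macrophage markers went the same way as Mrap, with 5 of 6 higher in animal 2 (6 of 6 with spike-ins). Their median log2 ratio was only -0.18 (-0.4 with spike-ins). The median over all genes compared was 0.01 (-0.21), and their median distance from 0 was 0.22 (0.29). The cortex markers were split in direction, with 3 of 6 higher in each animal under both scalings, but not evenly in size. With TMM, Cyp11a1, Cyp11b1 and Cyp11b2 had log2 ratios of 0.24, 0.25 and 0.32, and Hsd3b1, Cyp21a1 and Nr5a1 had -0.36, -0.40 and -0.68. With spike-ins the first group had 0.02, 0.03 and 0.10, and the second had -0.59, -0.62 and -0.91. Medians of the other lists were 0.55 (0.33 with spike-ins) for adipocyte and 0.33 (0.11) for chromaffin markers. They were 10.19 (9.97) for skeletal muscle and -0.06 (-0.28) for cortex markers. The muscle genes Ckm, Myh2, Myh4 and Atp2a1 had 0 counts in animal 2 and passed the count minimum only through animal 1. The size of the muscle median therefore depends on the 0.5 added to each count. The part of these cell types in the difference was not tested.

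**Figure D3:**
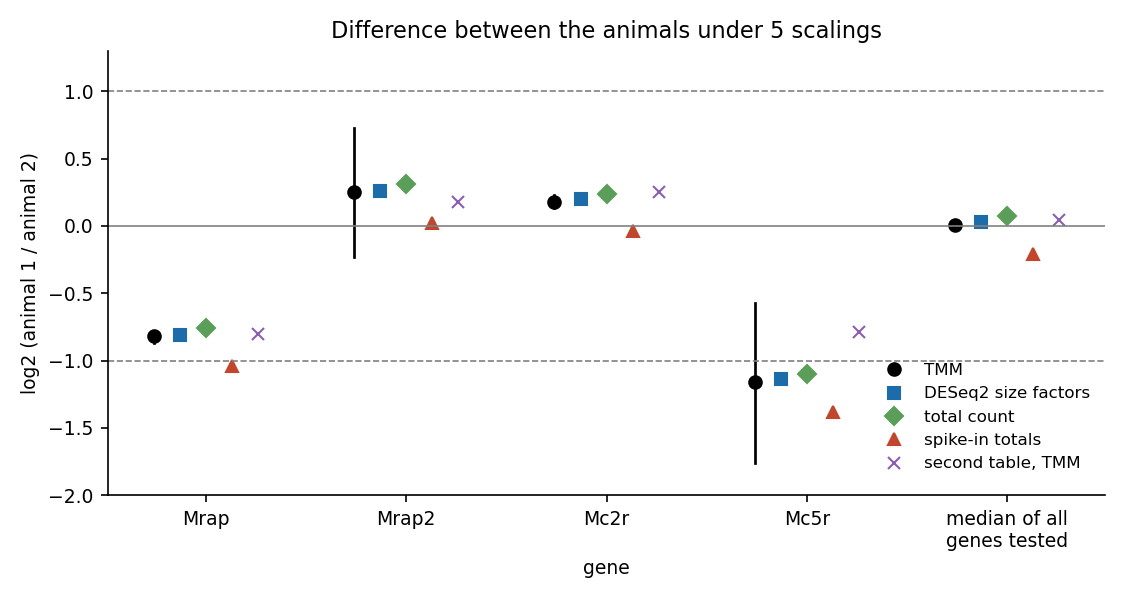
Log2 ratio of animal 1 over animal 2 for the 4 members whose expected count averaged 50 or more and for the median of all genes compared, under 4 scalings of the expected counts and in the second table; black lines are 95% counting intervals and dashed lines mark 2-fold. Mrap and Mc5r lie below 0 under all of them, Mrap2 lies above 0, and Mc2r lies above 0 except with spike-in totals, where it is -0.04.

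Antagonists and modulators of melanocortin receptors were present with the exception of Asip, the agouti protein of hair follicles, which was listed at 0 in both libraries. Sdc3, a syndecan known to assist agouti-related protein in the hypothalamus, had 154.53 TPM in animal 1, against 127.18 TPM in animal 2. Mgrn1, a ubiquitin ligase of the mahogunin locus, had 22.6 and 25.25 TPM in animals 1 and 2. Atrn, the attractin gene needed for agouti signalling in the mouse, had 8.53 TPM in animal 1, against 9.69 TPM in animal 2, and its paralog Atrnl1 had 6.65 and 7.1 TPM. Agrp, for agouti-related protein, an antagonist of the Mc3r and Mc4r receptors, was at 2.06 TPM in animal 1, against 1.59 TPM in animal 2, although these receptors had at most 1 count. Of 6 genes, 4 could be compared and none was apart, with a median log2 ratio of -0.07 (-0.29 with spike-ins). Agrp is also a marker of hypothalamic neurons, of which Sim1, Hcrt and Pmch were listed at 0 in both gene tables, while Npy, also made by chromaffin cells, had 335.0 TPM in animal 1, against 225.35 TPM in animal 2, and Cartpt 5.58 and 4.35 TPM.

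All 10 genes of receptor coupling, desensitisation and recycling were detected, and none was apart. Their median log2 ratio was 0.00 with TMM and -0.23 with spike-ins, where all genes compared had 0.01 and -0.21. Intervals did not overlap for 4 of the 10, against 33.1% of all genes compared. Gnas, for the stimulatory G protein subunit, had 842.49 TPM in animal 1, against 771.1 TPM in animal 2. Gnb1, for a beta subunit, had 108.77 and 131.45 TPM in animals 1 and 2. The endosomal GTPase genes followed, with 76.25 and 87.4 TPM for Rab11a and 25.7 and 33.01 TPM for Rab5a in animals 1 and 2. The receptor activity-modifying proteins, accessory proteins of the calcitonin receptor family, were far below Mrap: Ramp2 had 8.17 TPM in animal 1, against 11.57 TPM in animal 2, Ramp3 4.26 and 6.12 TPM, and Ramp1 2.39 and 2.03 TPM. None of these 3 was apart.

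Mc2r had more TPM in the gene table than each of 17 other receptor genes for hormones known to act on the adrenal, 9 of which were detected. None of the 9 was apart, and their median log2 ratio was 0.13, which turned to -0.09 with spike-ins. The nearest were Agtr1a, the angiotensin II receptor, with 71.89 TPM in animal 1, against 102.47 TPM in animal 2, and Npr1, a natriuretic peptide receptor, with 90.85 and 81.2 TPM. In the second table this order turned in animal 2 and was nearly level in animal 1, with 198.1 TPM for Mc2r and 198.0 TPM for Agtr1a in animal 1, and 165.1 TPM for Mc2r and 255.6 TPM for Agtr1a in animal 2. The endothelin receptor gene Ednrb had 12.47 TPM in animal 1, against 11.12 TPM in animal 2, and Adcyap1r1, the receptor for PACAP, had 9.68 and 8.75 TPM. Lhcgr, Glp1r and Crhr2, receptors for luteinizing hormone, glucagon-like peptide and urocortins, were under 0.1 TPM in both libraries.

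All 14 genes known to respond to ACTH were detected, where 52.4% of nuclear protein-coding genes were. Fdx1 and Crem, 2 of the 14, were apart and higher in animal 2, against 1.71% of all genes compared. Fdx1, for the ferredoxin that feeds electrons to mitochondrial steroid enzymes, had 378.21 TPM in animal 1, against 1004.06 TPM in animal 2. Crem, for a cyclic AMP-responsive transcription factor, had 21.04 TPM in animal 1, against 96.73 TPM in animal 2. Star, for the protein that carries cholesterol into mitochondria, had 2984.14 TPM in animal 1, against 5373.69 TPM in animal 2. The other genes named from this list did not share this direction with TMM or with spike-ins: Cyp11b1 had 2622.25 and 2285.48 TPM and Cyp11a1 2334.55 and 2034.28 TPM in animals 1 and 2, both for steroid enzymes, and Akr1b7, an aldo-keto reductase gene of the cortex, had 1144.39 and 763.2 TPM. Among the cortex markers, the steroid enzyme genes Cyp21a1, with 3567.73 and 4885.86 TPM in animals 1 and 2, and Hsd3b1, with 3863.77 and 5118.32 TPM, were higher in animal 2 as Star was, under both scalings. Of the 14, 9 had a log2 ratio below 0 (10 with spike-ins), with a median of -0.40 (-0.62 with spike-ins), where all genes compared had 0.01 (-0.21). The list holds genes that earlier results of these libraries had shown to differ, so its counts are a description only.

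**Figure D4:**
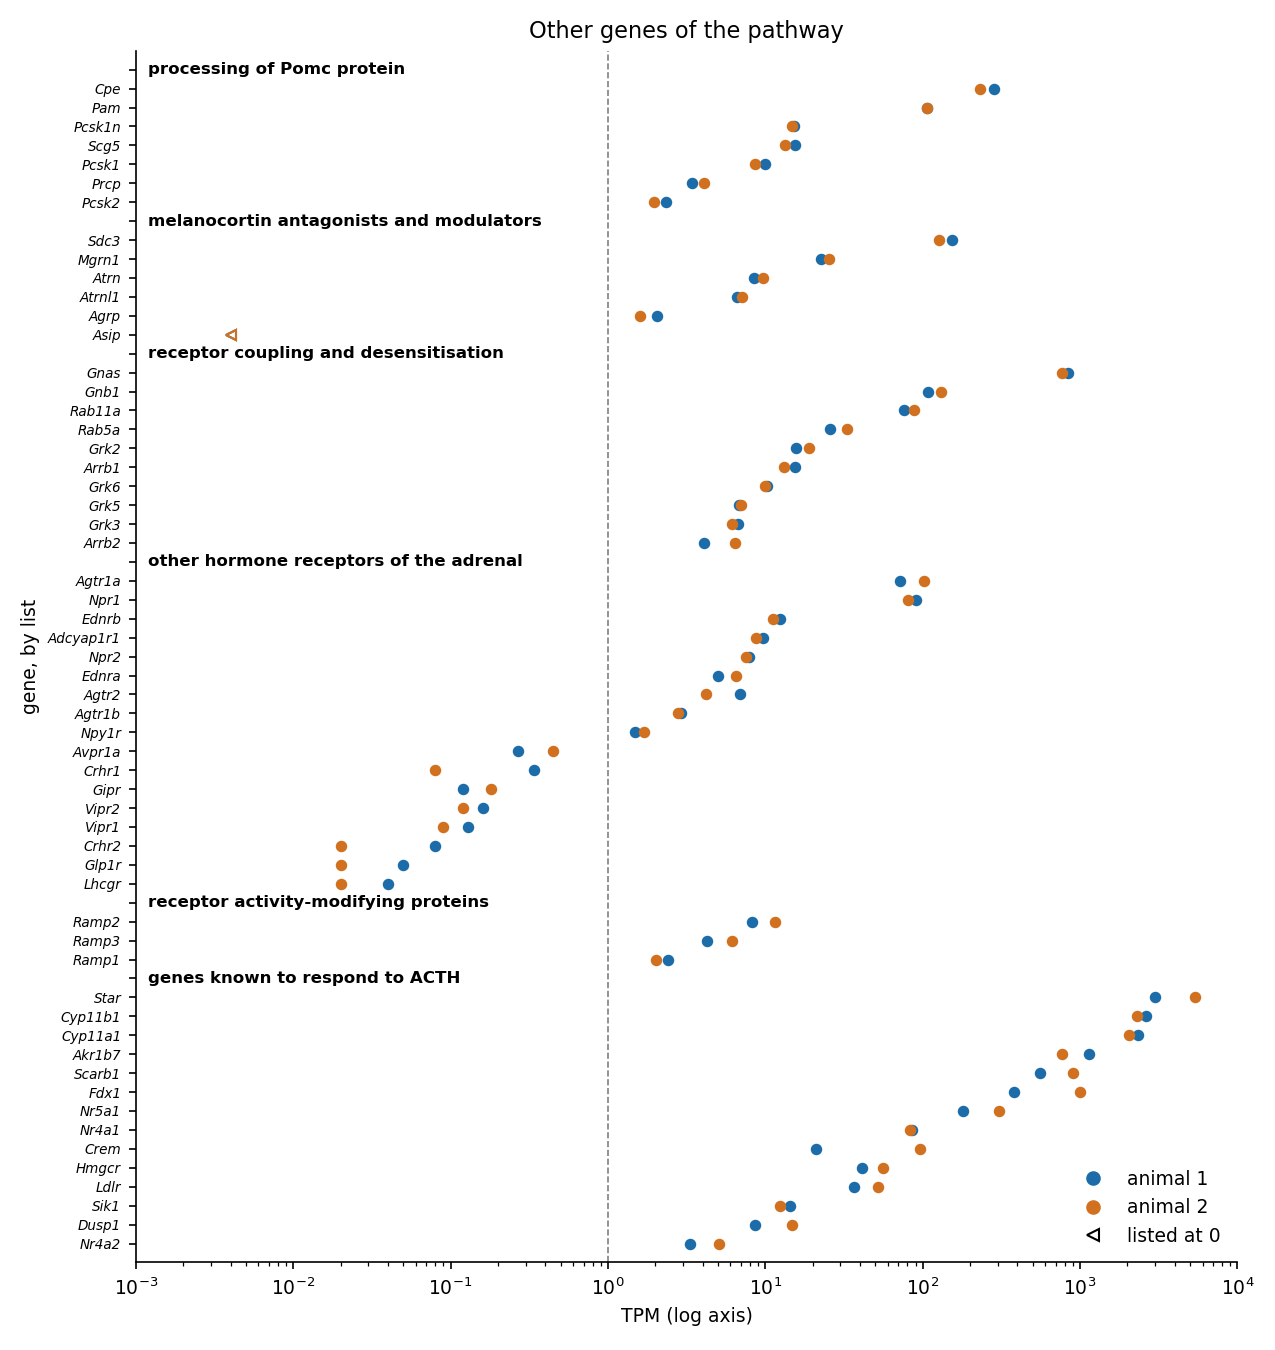
Levels in TPM (log axis) of the genes of 6 lists around the melanocortin receptors in animal 1 (blue) and animal 2 (orange), ordered by mean level within each list; the dashed line is 1 TPM and the open triangle marks a gene listed at 0. The genes of the Pomc processing list all lie above 1 TPM, and within the ACTH list Crem and Fdx1 show the widest gaps between the animals.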

How the data were processed

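Total RNA-seq tables of 2 libraries were used. Per the file headers, the authors deposited expected counts and TPM per gene and per transcript, with the bounds of a TPM interval (handled as a score), and, in a second transcript table, estimated counts and TPM. The column names are those of RSEM and kallisto; the sources used here do not give the programs, their versions or the interval level. Per the deposited notes, tables were made on mm10 with GENCODE M21. Reads of both parental genomes of the hybrid were thus assigned to 1 annotation. All 55536 gene identifiers matched GENCODE M21, from which coordinates, transcript types and sequences were taken. The 96 spike-ins (316894 and 256626 counts in animals 1 and 2) and 26248 entries named by numbers were left out of the results.

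Expected counts were rounded, scaled by the TMM method (edgeR 4.0.16 under R 4.3.3) and compared as log2 of animal 1 over animal 2 with 0.5 added. Scaling with DESeq2 1.42.0 size factors, spike-ins and totals, other count minimums, the second table and each animal alone were alternatives. Means carry the SD over 2 animals, and that spread may be technical. All members are named, with up to 4 highest members of each list, members under 0.1 TPM, and neighbours within 10 kb. Members and lists were chosen with earlier results of these data known. Fdx1 and Crem were named, levels of Pcsk1 and Pcsk2 were given, and the ratio over the lengths of the second table was added, after values were seen.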

Additional observations from a re-analysis of the deposited data

How the results depend on the processing

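Of 50 alternative settings of the main results, 38 stayed within the spread or count limit and 12 moved. Of 46 for single members, 17 moved and 1 reversed, the log2 ratio of Mc2r at -0.04 with spike-in totals. Some of these settings could not have moved, so the number that stayed overstates stability. Leaving out 1 of 2 animals always keeps a level, ratio or share within the SD over both. Rescaling to nuclear protein-coding genes cancels in the ratios and in the Mc2r share. The second table gave mean levels of 181.6 TPM (Mc2r) and 558.8 TPM (Mrap), and rescaling to nuclear protein-coding genes gave 367.3 and 854.1 TPM. In gene table counts without division by length, the log2 ratio of Mrap over Mc2r averaged 0.41 and the Mc2r share 99.14%. That of Mrap over Mrap2 averaged 6.91, and 6.99 in TPM with 1 TPM added. The share of Mrap-201 was 72.11% in the second table. An expected count of at least 10 in both libraries kept 4 members, and 0.5 TPM kept 3. Members apart numbered 2 with spike-ins and 0 in the second table. Over all genes, 469 were apart, 733 with a minimum count of 10 and 786 with none. Leaving out either animal gave 105.7 to 115.9 TPM (Mc2r), 183.9 to 335.8 TPM (Mrap), 0.67 to 1.67 (log2 Mrap over Mc2r), 7.48 to 8.56 (log2 Mrap over Mrap2), 99.5 to 99.8% (Mc2r share), 89.39 to 90.38% (Mrap-201) and 2 to 3 members detected. No paired analysis was possible because there is only 1 group. Depth limits Pomc, Mc3r and Mc4r to counts of 0 to 7 per library in the gene table. Mc1r had 1 and 0 counts there but 22.1 and 26.6 in the second table in animals 1 and 2, so its level depends on the table.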
